A study of Mus musculus with 2 samples.

Results

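Transcripts of sterol and fatty acid synthesis were compared between stimulated CD8 T cells from mice lacking diacylglycerol kinase ζ (DGKζ) and from wild-type mice, in 38 genes of the 24013 in the deposited table. The genes had been listed by name: regulators of the sterol regulatory element-binding proteins (SREBPs), the enzymes of the mevalonate and cholesterol routes, the enzymes that build, desaturate and elongate fatty acids, and the genes of sterol efflux. A gene was represented by its transcript row with the highest mean over both libraries. The deficient group was 1 library from DGKζ-/- mice aged 6 weeks and the control group 1 library from wild-type mice aged 7 weeks, both of strain C57BL/6. In both, naive splenic CD8 T cells were isolated with a commercial kit and stimulated through CD3 and CD28 with antibodies fixed to the plate for 24 hours. The labels do not state the number of animals in a library or which part of the gene is deleted, and no unstimulated cells were analysed here.

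SREBP precursors are held in the endoplasmic reticulum by the escort protein SCAP and the INSIG anchors while sterols are plentiful. When sterols run low, SCAP carries them to the Golgi, where they are cleaved and release transcription factors, SREBP2 acting mainly on the cholesterol route and SREBP1 mainly on fatty acids. Liver X receptors (LXRs) work in the other direction: they sense oxidised sterols and switch on efflux transporters, and they also activate the genes of SREBP1 and of the desaturase SCD1. T cells that prepare to divide after receptor stimulation depend on this machinery for new membrane. DGKζ itself phosphorylates diacylglycerol and so limits the Ras and protein kinase C signals that this lipid carries below the T cell receptor.

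The deficient library held 13464169 reads and the wild-type library 37211969, counted on 1 row per gene. With 1 library per genotype no difference has a replicate check and no test was possible. The 95% intervals given below (exact Clopper-Pearson) cover counting error only, with the library scaling taken as known. Scaling both libraries to equal totals would change each log2 fold by -0.090. The intervals of Insig1, Idi1, Nsdhl, Acaca and Fads1 lie above 1 as given but would then cover 1. That of Srebf2 covers 1 as given and would then lie under it. Dgkz stood at 2591 normalized counts in the deficient and 6714 in the wild-type library, 2.59-fold lower (2.46 to 2.74). All 6 CD8 T cell markers were present, but 5 of them were lower in the deficient library, with summed levels of 28719 and 37302 normalized counts, Cd8a at 8455 and 13091 and Cd3g at 2603 and 4767 in the deficient and wild-type libraries. Both CD4 T cell markers were lower as well, Cd4 at 53.2 and 171 and Zbtb7b at 48.0 and 57.1, together 101.2 and 228. All 11 B cell markers were lower in the deficient library, with summed levels of 2296 and 3144 normalized counts and no marker at 0. Of the 8 myeloid markers 7 were lower and Mpeg1 was higher (185 and 127), and their summed levels were 274 and 286, with Cd14 at 0 in the deficient library. The summed levels of 5 adipocyte markers were 8.57 and 10.5, with Adipoq and Fabp4 at 0 in the deficient and Plin1 at 0 in the wild-type library. Xist was read at 9206 and 14.0 normalized counts and the 4 Y-linked genes were at 0 in the deficient library only, so the libraries also differed in sex. Sex and age differed along with genotype, so their part in the differences below cannot be told apart from that of genotype. The part of other cells was not tested, and in bulk RNA fewer cells of a type cannot be told apart from less RNA per cell.

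Desaturase genes carried the largest differences, and the sterol route differed by little but mostly in the same direction. A gene was called where log2((deficient + 10)/(wild type + 10)) of its normalized counts, the log2 ratio, reached 1 or -1, that is 2-fold. Of the 38 genes, 37 had a mean of at least 50 normalized counts and were compared. Scd1, Scd2 and Fads2, all of them desaturases, were called higher, against 1.3% of all 10518 compared genes. None of the 37 was called lower, against 1.29% of all. With both libraries scaled to equal totals, Scd1 and Fads2 were still past 2-fold, against 1.09% of all genes, while Scd2 had a log2 ratio of 0.997, just short of the limit. At 1.5-fold, 6 genes were higher, the other three being Acss2, Abca1 and Fdps, and 0 were lower, against 4.53% and 5.07% of all genes. The log2 ratio was above 0 in 32 of the 37, against 58.2% of all genes. It was above 0 in 30 of them at equal totals, against 44.8%. The median log2 ratio of the 37 was 0.22, beside a median of 0.055 and quartiles of -0.14 and 0.22 for all compared genes.

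**Figure D1:**
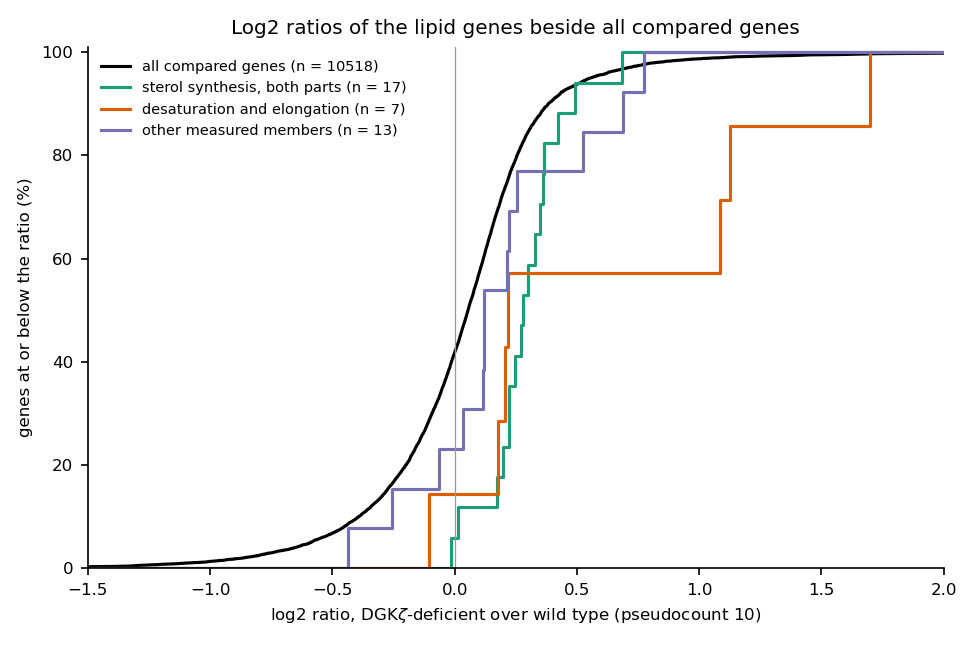
Cumulative share of genes (%) against the log2 ratio of the deficient over the wild-type library (pseudocount 10), for all 10518 compared genes, the 17 measured sterol synthesis genes, the 7 desaturation and elongation genes and the 13 other measured members. The sterol synthesis curve lies to the right of that of all genes over most of its length without reaching 1, and 3 of the 7 desaturation and elongation genes stand beyond 1.

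Promoter windows are shown for 4 genes. Cyp51 and Idi1 belong to the sterol route, and Fasn is the most abundant gene that was lower. Fads2 is the only called desaturase with a window at hand and cannot stand for the others. Each window is the 250 bases upstream of the annotated start, on the gene's strand and 5′ to 3′, from RefSeq on build GRCm38.p6, a later build than the mm9 of the deposited counts. Capitals mark matches on either strand to CCAAT (the box bound by NF-Y, a known partner of SREBPs), to TCACNCCAC (an SREBP element) or to CACGTG (an E-box).
Cyp51, chr5:4104698-4104947, minus strand: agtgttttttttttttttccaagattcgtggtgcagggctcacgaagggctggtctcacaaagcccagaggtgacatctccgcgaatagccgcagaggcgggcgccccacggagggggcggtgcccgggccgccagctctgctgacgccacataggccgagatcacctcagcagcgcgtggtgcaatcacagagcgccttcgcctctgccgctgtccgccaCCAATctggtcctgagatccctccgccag
Idi1, chr13:8885356-8885605, plus strand: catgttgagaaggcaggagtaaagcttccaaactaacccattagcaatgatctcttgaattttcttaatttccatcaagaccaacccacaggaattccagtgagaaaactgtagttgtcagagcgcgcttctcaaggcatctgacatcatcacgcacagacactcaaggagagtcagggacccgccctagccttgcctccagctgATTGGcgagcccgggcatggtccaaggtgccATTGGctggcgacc
Fasn, chr11:120824548-120824797, minus strand: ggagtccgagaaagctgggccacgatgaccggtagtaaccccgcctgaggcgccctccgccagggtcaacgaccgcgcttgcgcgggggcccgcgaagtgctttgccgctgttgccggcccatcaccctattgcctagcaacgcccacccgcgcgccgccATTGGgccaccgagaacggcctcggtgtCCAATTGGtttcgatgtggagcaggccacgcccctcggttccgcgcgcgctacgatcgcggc
Fads2, chr19:10101504-10101753, minus strand: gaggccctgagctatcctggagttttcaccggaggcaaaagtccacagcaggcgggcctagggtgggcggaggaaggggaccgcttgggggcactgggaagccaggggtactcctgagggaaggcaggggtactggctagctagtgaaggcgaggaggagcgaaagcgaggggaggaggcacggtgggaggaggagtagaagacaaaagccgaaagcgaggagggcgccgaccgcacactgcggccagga
The Cyp51 window held 1 CCAAT match, Idi1 2 and Fasn 3, a pair of which overlap on opposite strands, while Fads2 held no match to any of the 3 motifs. Windows were at hand for 30 of the 38 members, those of Scd1 and Scd2 not among them. Counting a gene where any of its windows matched, CCAAT was found in 22 of the 30 members and in 14 of the 15 sterol synthesis genes with a window, against 37.5% of 27025 genes. These 27025 are all genes with a window and were not limited to those compared here. TCACNCCAC was found in 1 member, Hmgcs1, against 1.22% of all genes, and CACGTG in 7 of the 30, against 6.86%. These are matches of letters and not measured binding, and Fads2 was the only called member with a window.

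Genes of sterol sensing and transport had the lowest median of the 6 steps, a log2 ratio of 0.12 over 6 genes, 4 of them above 0, also at equal totals. Srebf1, the gene of SREBP1, was read at 3826 normalized counts in the deficient and 3208 in the wild-type library, 1.19-fold higher (95% interval 1.13 to 1.25). Srebf2, the gene of SREBP2, stood at 4149 and 4336, a ratio of 0.957 (0.914 to 1.002). The ratios lay on opposite sides of 1, that of Srebf2 by less than its counting error. Scap, which encodes the escort, was 1.19-fold lower (1.13 to 1.26), at 3236 in the deficient and 3866 in the wild-type library. About 13.1% of the 50-base stretches of its transcript are shared with a transcript on the opposite strand, and the library kit does not mark strand. The anchors Insig1 (3317 and 3055) and Insig2 (259 and 238) were 1.09-fold higher each, with intervals of 1.03 to 1.14 and 0.895 to 1.31, so that of Insig2 covers 1. Stard4, a cytosolic carrier of cholesterol, was 1.16-fold higher (1.08 to 1.25), at 1816 and 1563.

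All 6 measured genes of the mevalonate steps, which turn acetyl-CoA into farnesyl diphosphate, had a log2 ratio above 0 in the deficient over the wild-type library, where 58.2% of all genes did, with a median of 0.28. None was called, against 1.3% of all genes called higher and 1.29% lower, so the count of calls does not set these 6 apart. Fdps, the synthase of farnesyl diphosphate, had the largest ratio among all 17 measured genes of sterol synthesis. It was read at 4442 normalized counts in the deficient and 2759 in the wild-type library, 1.61-fold higher (1.53 to 1.69). Of the 50-base stretches of its transcript, 86.4% also occur in transcripts of other genes, predicted copies among them, so its reads are uncertain. Pmvk, phosphomevalonate kinase, stood at 1828 and 1299, 1.41-fold higher (1.31 to 1.52), and shares no such stretch. The other four lay close together: Mvd (873 and 717), Mvk (585 and 482), Acat2 (1629 and 1372) and Idi1 (832 and 713) were 1.22-, 1.21-, 1.19- and 1.17-fold higher. Their intervals all lay above 1, the lowest bound being 1.05 for Idi1. Acat2 (the cytosolic thiolase) shares 45.9% and Idi1 (the isopentenyl diphosphate isomerase) 30.5% of their stretches with other transcripts, whereas Mvd and Mvk, the decarboxylase and the mevalonate kinase, share 0%. Hmgcs1, the HMG-CoA synthase gene, was the 1 member below the minimum. It was listed at 3.43 normalized counts (2 reads) in the deficient and 6.41 (11 reads) in the wild-type library, far under its neighbours in the route, and no ratio is drawn from it.

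Of the 11 genes that lead from farnesyl diphosphate through squalene to cholesterol, 10 had a log2 ratio above 0 (9 at equal totals, where Hsd17b7 turned negative), where 58.2% and 44.8% of all genes did, and the median was 0.30. None was called, against 1.3% of all genes called higher and 1.29% lower. Sqle, squalene epoxidase and a rate-controlling enzyme of the route, was read at 3710 normalized counts in the deficient and 2765 in the wild-type library, 1.34-fold higher (1.27 to 1.41). Cyp51, the lanosterol demethylase and the gene of this route with the most reads, stood at 9690 and 7518, 1.29-fold higher (1.25 to 1.33). Fdft1, squalene synthase, was 1.29-fold higher (1.20 to 1.38), at 1787 and 1389, though 30.7% of its stretches are shared with other transcripts. The order of the ratios did not follow the order of the steps. Of the other enzymes, Ebp (a sterol isomerase), Msmo1 (a methylsterol oxidase), Sc5d (a sterol desaturase), Nsdhl (a sterol dehydrogenase) and Lss (lanosterol synthase, which acts between Sqle and Cyp51) were 1.28-, 1.23-, 1.17-, 1.15- and 1.13-fold higher, each with an interval above 1. Their levels in the deficient and wild-type libraries were 1226 and 960 for Ebp, 2200.3 and 1785 for Msmo1, 2634 and 2259 for Sc5d, 811 and 707 for Nsdhl, and 3276 and 2907 for Lss. Tm7sf2, a sterol reductase, was the lowest of the group at 142 and 111 (83 and 191 reads), and its interval of 0.976 to 1.66 covers 1. Hsd17b7, a ketosteroid reductase (1122 and 1111), and Dhcr7, the reductase that forms cholesterol (576 and 583), had ratios of 1.01 (0.922 to 1.10) and 0.989 (0.872 to 1.12). So 8 of the 11 intervals lay above 1 and 0 below, where 35.8% and 21.7% of all compared genes did. That of Nsdhl lay above 1 at the deposited scaling but not at equal totals. Ebp and Nsdhl are X-linked, and without them the median of this group was 0.30. The 315 compared X-linked genes, with Ebp and Nsdhl among them and Xist and Tsix left out, had a median log2 ratio of 0.058.

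**Figure D2:**
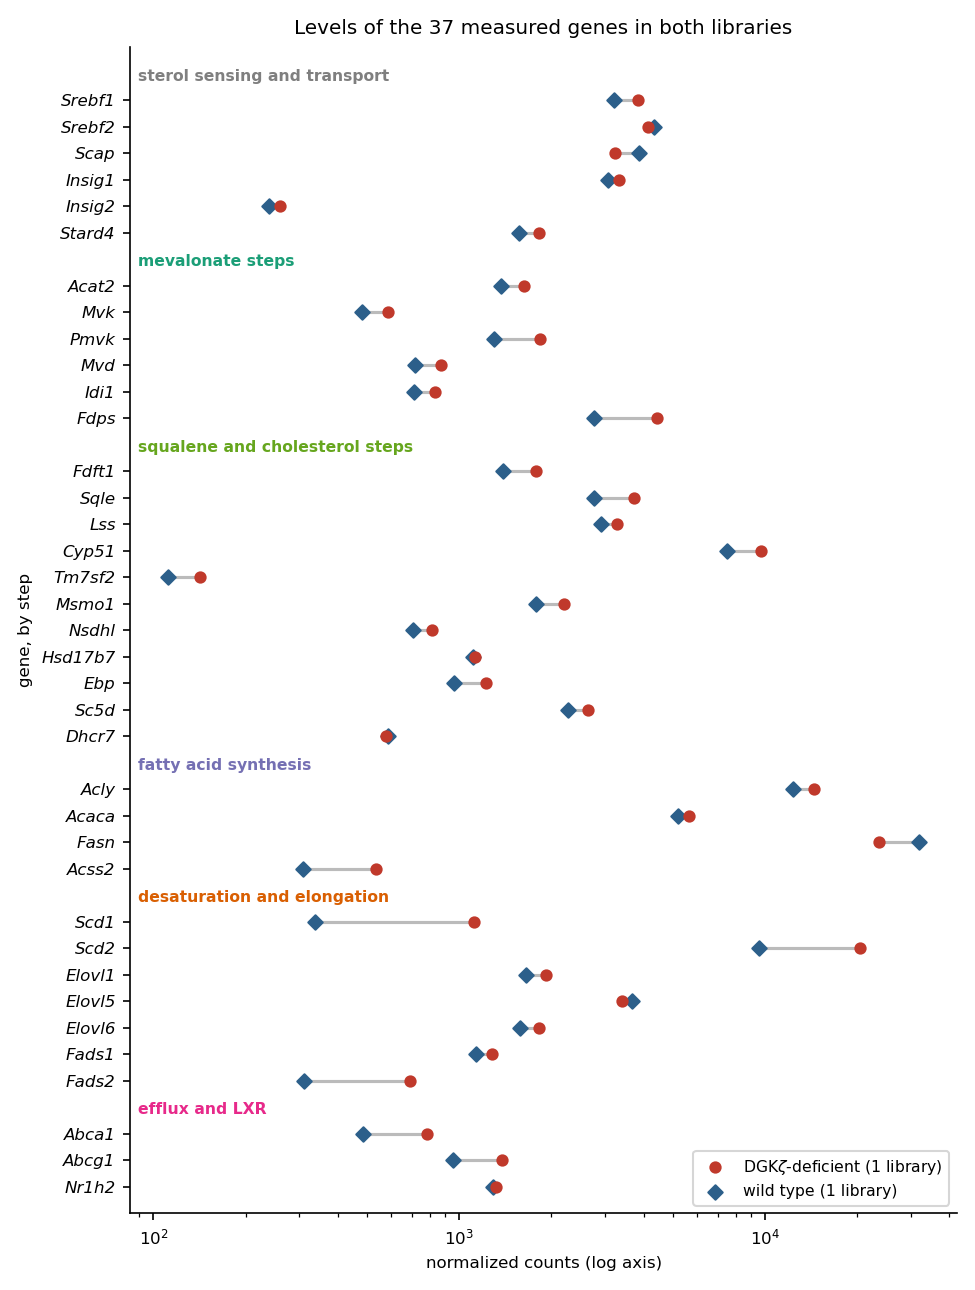
Normalized counts (log axis) of the 37 measured genes, grouped by step, in the DGKζ-deficient (circles) and wild-type (diamonds) library. Scd1, Scd2 and Fads2 have the widest gaps between circle and diamond, and Fasn is the most abundant gene with its circle on the left, at 23567 against 31907.

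Fatty acid synthesis showed no common direction. Fasn, the synthase that makes palmitate, was lower in the deficient library, at 23567 normalized counts against 31907 in the wild-type library, 1.35-fold (1.33 to 1.38). It was the gene of the 37 with the most negative log2 ratio (-0.44), and 8.50% of all compared genes had a lower ratio. The enzymes that supply its substrate were higher instead. Acly, which makes cytosolic acetyl-CoA from citrate, stood at 14380.2 and 12340.0 and was 1.17-fold higher (1.14 to 1.20). Acss2 makes acetyl-CoA from acetate, and at 533 normalized counts in the deficient and 308 in the wild-type library it was 1.73-fold higher (1.501 to 1.997). Acaca, the carboxylase that forms malonyl-CoA, was 1.09-fold higher (1.04 to 1.13), at 5634 and 5190.1, with 55.4% of its stretches shared with a predicted gene. The median of these 4 genes was 0.17 and the sum of their levels was 44115 in the deficient and 49745 in the wild-type library, so the median and the sum point in different directions.

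The 7 genes of desaturation and elongation had a median log2 ratio of 0.22. Split by enzyme type, which was not planned, the 4 desaturase genes had a median of 1.11 and the 3 elongase genes one of 0.21. The 4 desaturases include the 3 called genes. Scd1 and Scd2 encode stearoyl-CoA desaturases, which turn saturated into monounsaturated fatty acids. Scd1 was read at 1119.9 normalized counts (653 reads) in the deficient and 338 (580 reads) in the wild-type library, 3.31-fold higher (2.96 to 3.71). Scd2, the far more abundant of the pair, stood at 20338 and 9572, 2.12-fold higher (2.07 to 2.18). The transcripts share 4.66% (Scd1) and 4.01% (Scd2) of their 50-base stretches with other transcripts, mostly of the Scd family, so at that length few stretches fail to tell them apart. Scd3 (8.57 and 12.2) and Scd4 (5.14 and 7.58), which lie in a row with Scd1 and Scd2 on chromosome 19, were below the minimum in both libraries. Fads2, the desaturase that opens the synthesis of long polyunsaturated fatty acids, was read at 689 normalized counts (402 reads) in the deficient and 311 (533 reads) in the wild-type library, 2.22-fold higher (1.94 to 2.53). Its neighbour Fads1, which acts later in that route, was 1.13-fold higher (1.04 to 1.23), at 1283 and 1134, and Fads3 stood at 37.7 and 23.9, below the minimum. The intervals of Fads2 and Fads1 do not overlap, although the genes adjoin each other. Of the 363 compared genes on chromosome 19, 6 were called higher, or 1.65%, against 1.3% of all compared genes. All 3 called members are among these 6. Elovl1 (very long chains), at 1917 and 1648, and Elovl6 (palmitate to stearate), at 1821 and 1576, were both 1.16-fold higher, with intervals of 1.08 to 1.25 and 1.08 to 1.24. Elovl5, the elongase of polyunsaturated chains, was 1.08-fold lower (1.02 to 1.13), at 3397 and 3654.

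**Figure D3:**
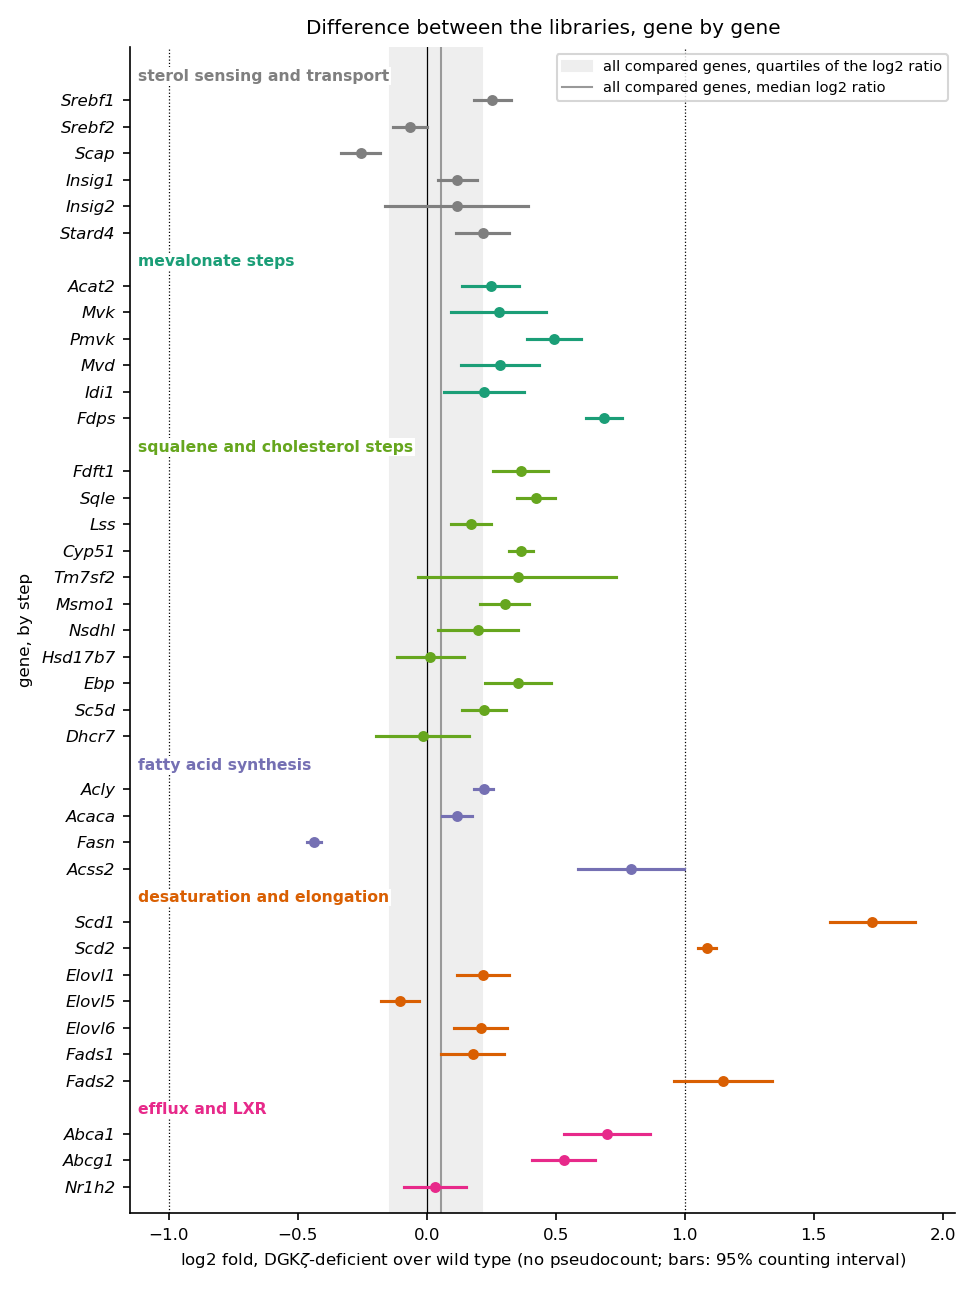
Log2 fold of the deficient over the wild-type library without a pseudocount, for the 37 measured genes by step, with 95% counting intervals as bars. The grey band and line give the quartiles (-0.14 and 0.22) and the median (0.055) of all compared genes, and dotted lines mark 2-fold. Scd1, Scd2 and Fads2 lie beyond the right dotted line and Fasn and Scap left of the band.

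Efflux genes were higher but not called, against 1.3% of all genes past 2-fold. Abca1, which exports cholesterol to lipid-poor apolipoproteins, was read at 785 normalized counts in the deficient and 484 in the wild-type library, 1.62-fold higher (1.44 to 1.82). Abcg1, which exports it to mature lipoproteins, stood at 1374 and 951, 1.44-fold higher (1.33 to 1.57). Both are classic targets of LXR. Nr1h2 itself, the gene of LXRβ, differed by less than counting error, at 1314 and 1284 (ratio 1.02, 0.941 to 1.11), and its log2 ratio turned negative at equal totals. Nr1h3, the gene of LXRα, was below the minimum at 8.57 in the deficient and 16.3 in the wild-type library.

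By abundance per length, Scd2 was the top member in the deficient library and Fasn in the wild-type library. Transcript lengths were found for all 38 members. Per kilobase, Scd2 had 3728 normalized counts in the deficient and 1755 in the wild-type library, and Fasn 2345 and 3175. Acly, with 3249 and 2788, was second in both. At the other end, Abca1 had 76.5 and 47.2 per kilobase, and Scd1, with 232 and 70.0, was near the bottom in the wild-type library. All 38 members together took 0.572% of the reads of the deficient and 0.536% of those of the wild-type library. Of the 9 members with several transcript rows, 8 were measured, and the log2 ratios of their rows differed by at most 0.042.

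Further lipid genes were counted in 5 lists of 81 gene symbols, of which 78 were in the table and 66 measured. The absent symbols, Hacd1, Hacd2 and Hacd3, are newer names of Ptpla, Ptplb and Ptplad1, which were in the table. Of the 66, 2 were called higher (Soat2 and Acsl6), against 1.3% of all compared genes, and 0 lower, against 1.29%, so these counts are near the background. The median log2 ratio of the 66 was 0.14. Soat2, which esterifies cholesterol for storage, was read at 123 normalized counts (72 reads) in the deficient and 25.1 (43 reads) in the wild-type library, 4.92-fold higher (3.33 to 7.36). Acsl6, an acyl-CoA synthetase, stood at 225 (131 reads) and 65.3 (112 reads), 3.44-fold higher (2.65 to 4.47). Both rest on few reads, and both had a mean under 200. Vldlr, a lipoprotein receptor, had 51.4 and 9.33 normalized counts and was below the minimum.

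The list of SREBP processing and turnover had the highest median of the 5, 0.23 over 11 genes. Of these, 9 were above 0 (8 at equal totals), where 58.2% of all genes were (44.8% at equal totals). Its largest ratios belonged to Lpin1 (log2 ratio 0.50, 713 and 503), a phosphatidate phosphatase, and to Ubxn4 (0.44, 2684 and 1981). Ubxn4 is a general factor of protein degradation at the endoplasmic reticulum and not one particular to SREBPs. The 17 measured genes of fatty acid activation, precursor supply and elongation had a median of 0.22, with 14 above 0 (13 at equal totals). Idh1, which makes cytosolic NADPH, stood at 127 and 69.4 with a log2 ratio of 0.79. The medians of fatty acid oxidation (0.064 over 10 genes) and of sterol uptake, storage and transfer (0.058 over 16 genes) were close to the 0.055 of all genes. That of the isoprenoid branch was 0.12 over 12 genes, as for sterol sensing and transport. Acadl (0.39) and Ppard (-0.36) differed most in the oxidation list, Stard5 (0.77) followed Soat2 in the uptake list, and Pggt1b (-0.28) and Icmt (0.24) led the isoprenoid list. At equal totals 5 of 10, 6 of 16 and 6 of 12 genes of the oxidation, uptake and isoprenoid lists were above 0, against 44.8% of all genes.

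**Figure D4:**
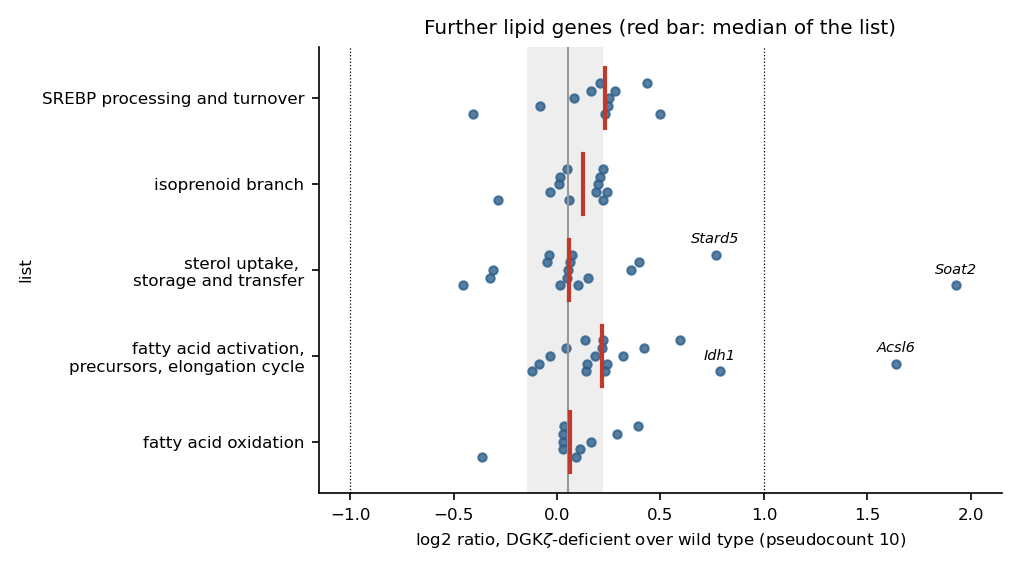
Log2 ratios (pseudocount 10) of the 66 further lipid genes in 5 lists, each point a gene and each red bar the median of its list, with the grey band and line giving the quartiles and the median of all compared genes. Soat2 and Acsl6 stand past the dotted line at 2-fold, and the medians run between 0.058 and 0.23.

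In the authors' deposited table the fold changes of these genes were smaller and no adjusted p-value passed 0.05. Fads2 had the lowest p-value of the 38 in the authors' deposited table, 0.0275, with a log2 fold change of 0.59 and an adjusted p of 0.999. For Scd1 and Scd2 the authors' deposited table gave log2 fold changes of 0.17 and 0.23 with p-values of 0.302 and 0.306, and for Fasn -0.33 with 0.148. Of all 33018 rows in the authors' deposited table, 0 had an adjusted p under 0.05 and 326 an unadjusted p under 0.05, and among the members these counts were 0 and 1. The method behind these values is not given in the sources used here beyond the name DESeq.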

How the data were processed

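Total RNA of 2 libraries was sequenced after preparation with the NEBNext Ultra RNA kit, which does not mark strand. The submitters' processing notes name STAR (version 2), DESeq and build mm9. Read length, annotation release and counting program were not given in the sources used here. As their processed data, the authors deposited normalized counts, a signal per RefSeq transcript row, and a table with log2 fold changes, a test score (not used), p-values and adjusted p-values.

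All deposited values (100%) were whole multiples of 1 step per library (relative tolerance 0.0001), worth 1.71 normalized counts in the deficient and 0.583 in the wild-type library, so whole reads were recovered. A count test has no residual degrees of freedom with 1 library per genotype and was not run. The 1 row with an additional tab (Alg6) was left out. Fold intervals are Clopper-Pearson intervals on the recovered reads of a gene (scipy 1.17.1). The values carry no molecular identifiers, so reads may repeat a molecule and the intervals can be too narrow.

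Shared sequence was measured as the percent of 50-base stretches of a member's transcript that occur, on either strand, in GENCODE M21 transcripts of other genes. Lengths came from the same transcripts, matched by RefSeq accession. Calculations were tested on simulated counts. All members are described. Of the further lipid genes, those called and the 2 with the largest absolute log2 ratio per list are named. Vldlr, Nr1h3, Scd3, Scd4 and Fads3 were named after their values were seen. The members, lists and thresholds were chosen with earlier results of these data known. Alternatives were the pseudocount, the minimum, the scaling, the transcript row and leaving out X-linked genes.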

Additional observations from a re-analysis of the deposited data

How the results depend on the processing

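Under 9 alternatives, the count of genes called higher lay between 2 and 3, and 0 genes were called lower. The median of fatty acid synthesis, 0.17, was 0.080 at equal totals and 0.11 after recentring on the median of all genes, since both lower every ratio. The medians of the other 5 steps fell at equal totals as well. That of sterol sensing and transport went from 0.12 to 0.028, and that of the mevalonate steps from 0.28 to 0.19. The squalene and cholesterol steps went from 0.30 to 0.21, desaturation and elongation from 0.22 to 0.13, and efflux and LXR from 0.53 to 0.44. The 2 called further lipid genes became 4 without a minimum, 3 with transcript rows summed and 0 at a minimum of 200, which leaves out both. Of 295 values of single genes under the alternatives, 277 stayed inside the counting interval of the gene, 18 left it and 0 of those past 2-fold changed direction. Hsd17b7 and Nr1h2, neither called, changed sign at equal totals and after recentring. The deficient library held 2.76 times fewer reads than the wild-type library, and sets the precision of genes such as Tm7sf2 and Insig2. No paired analysis was possible because there is 1 library per genotype.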
